A study of Homo sapiens with 4 samples.

Results

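The cassette exons described here are the long ones, those of 500 nt or more. A cassette exon is an exon that a splice form can include or skip. The exons were chosen by length alone, from the table of skipped exon events, with 1 event kept for each exon, the one with the most counts over the 4 libraries. This left 1408 long exons of 57729 cassette exons (2.44%), behind 1978 of 84930 events, in 1246 genes. The libraries came from U87MG cells, an established glioblastoma line, which were transfected with Lipofectamine 2000 and an oligonucleotide at 2.5 µM. A pair of libraries came from cells given RBFOXi, a decoy that carries repeats of the UGCAUG motif bound by the splicing factors RBFOX1 and RBFOX2. The other pair came from cells given SCRM, the scrambled control, and both groups are the same line with no other treatment named. Per the labels, only RBFOXi replicate 1 was given its oligonucleotide in a Cy5-tagged form.

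Most internal exons of vertebrate genes are short, and the spliceosome recognises them as units by pairing the splice sites at their ends across the exon. Long internal exons are rarer and often hold a whole functional stretch of a protein, such as the glycosaminoglycan attachment regions of versican or a run of repeats in a structural protein. RBFOX proteins bind UGCAUG in RNA and typically promote inclusion of an exon when they bind in the intron after it and skipping when they bind in the intron before it. The comparison of RBFOXi with SCRM asks which exons change when the decoy is present.

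The sequences below show where UGCAUG lies beside some of the long exons named below. They were read from hg19 on the strand of the gene, written 5′ to 3′ with T for U, and the capitals mark the motif within 24 nt on either side. Shown are 9 exons with the motif within 300 nt, out of the 15 exons named below that had an unadjusted p-value under 0.05 and whose groups did not overlap. None of the 15 passed the adjusted threshold in the main test described below. Over all tested long exons, the motif lay within 300 nt after 8.86% and before 7.54%. Whether the motif bears on any change was not tested. In DEPDC1 the windows are chr1:68948719-68948772, before the exon, and chr1:68947680-68947733, after it. The windows before the exon are chr2:238296855-238296908 in COL6A3, chr10:45959424-45959477 in MARCH8, chr2:44587444-44587497 in PREPL, chr1:110465482-110465535 in CSF1 and chrX:153032059-153032112 in PLXNB3. Those after the exon are chr10:61828271-61828324 in ANK3, chr3:152018343-152018396 in MBNL1 and chr10:29821206-29821259 in SVIL.
DEPDC1, before the exon: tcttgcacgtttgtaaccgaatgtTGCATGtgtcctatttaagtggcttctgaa
DEPDC1, after the exon: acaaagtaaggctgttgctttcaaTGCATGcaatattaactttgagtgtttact
COL6A3, before the exon: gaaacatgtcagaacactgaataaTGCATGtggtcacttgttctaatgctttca
MARCH8, before the exon: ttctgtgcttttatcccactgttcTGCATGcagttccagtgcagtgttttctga
PREPL, before the exon: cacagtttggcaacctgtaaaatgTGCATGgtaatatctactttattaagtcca
ANK3, after the exon: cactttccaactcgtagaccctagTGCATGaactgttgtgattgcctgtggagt
CSF1, before the exon: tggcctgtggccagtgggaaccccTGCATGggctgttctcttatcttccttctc
PLXNB3, before the exon: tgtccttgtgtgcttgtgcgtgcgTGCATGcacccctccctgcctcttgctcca
MBNL1, after the exon: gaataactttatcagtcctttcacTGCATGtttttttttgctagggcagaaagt
SVIL, after the exon: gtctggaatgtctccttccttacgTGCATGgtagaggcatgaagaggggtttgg

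The boundaries of 6 long exons, all coding over their whole length, are shown next because these exons span the range of inclusion found in control cells. Each line holds 22 nt of intron and 8 nt of exon, with the terminal AG of the intron before the exon, or the first GT of the intron after it, in capitals. The 3′ splice sites come first, in order of rising inclusion with SCRM.
COL6A3 exon of 618 nt, chr2:238303840-238303869: aaaccaatgtctttttttaaAGatgtcaaa
DEPDC1 exon of 852 nt, chr1:68948573-68948602: tttttgtttcatttcctggtAGttgtttgt
NASP exon of 1017 nt, chr1:46072971-46073000: ttcatgttctttaaccatgtAGaggaagca
COL6A3 exon of 603 nt, chr2:238296820-238296849: tttgcatttctttcttttaaAGcacaagac
VCAN exon of 5262 nt, chr5:82832804-82832833: gtgaaaactctgtttttttcAGgtcgaatg
AX748291 exon of 6578 nt, chr16:89352050-89352079: tctcgcttcctacctccaacAGagagctca
The 5′ splice sites follow in the same order.
COL6A3 exon of 618 nt, chr2:238303208-238303237: catcacagGTaatggcaacgccaccaagct
DEPDC1 exon of 852 nt, chr1:68947707-68947736: cacacaaaGTaaggctgttgctttcaatgc
NASP exon of 1017 nt, chr1:46074002-46074031: gggtgaagGTaaccgggatatgcaagagct
COL6A3 exon of 603 nt, chr2:238296203-238296232: cacacaagGTatgtatcctcttctcaccat
VCAN exon of 5262 nt, chr5:82838080-82838109: tttaccagGTaagatcacaacattgataaa
AX748291 exon of 6578 nt, chr16:89345458-89345487: tccccgtgGTgagtgcggggcccgggagag

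For every event and library the deposited values are inclusion counts, of reads on the exon's body and junctions, and skipping counts, of reads on the junction that leaves it out. A long exon collects many more inclusion reads than a short one at the same level of inclusion. Inclusion is therefore described by both of these definitions: the PSI (proportion spliced in), for which each count is divided by the effective length of its form, and the plain share of inclusion counts. The effective length of the inclusion form was a median of 11.4 times that of the skipping form in long exons and 2.36 times in the other exons, so in a long exon a single skipping read weighed as much as about 11.4 inclusion reads. Tests rest on the spread between libraries, because the same read may enter more than 1 event.

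Of the 1408 long exons, 756 (53.7%), in 701 genes, passed the filter on low counts (5 or more per library, 20 on average, and 4 or more of either form in total) and were tested. Of the 652 others, 590 had enough counts but under 4 skipping counts, 1 had under 4 inclusion counts and 61 had too few counts. The long exon of MAP1A, which encodes a microtubule-associated protein, is an example of the first kind. It is 8185 nt long and had 2 skipping counts against 387087 inclusion counts over the 4 libraries. The tested exons ranged from 500 to 7812 nt with a median of 811 nt, and 65 of them (8.60%) overlapped another long exon on the same strand. Just inside the limit, at 500 nt, lay exons of KIAA0232, TRIM6 and TMEM175, with mean PSI of 0.990, 0.994 and 0.902 in SCRM. The exon under the name TRIM6 belongs to TRIM34 and TRIM6-TRIM34 in the annotation. Just outside it, at 499, 499 and 498 nt, lay exons of PPM1K, MTERFD2 and BRD1, with mean PSI of 0.792, 0.608 and 0.989.

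SCRM replicate 1 stood apart from the other libraries on long exons, and to a lesser degree on the other tested exons. Counts on the tested long exons made up 2.67% of the counts on all tested cassette exons in that library, against 4.22% and 4.71% in the RBFOXi libraries and 5.26% in SCRM replicate 2. In exons of 2000 nt or more the share was 0.445%, against 1.01%, 1.16% and 1.38%. A tested long exon had a median of 495.5 counts in SCRM replicate 1 and of 1290.5, 1681.5 and 1775.5 counts in RBFOXi replicate 1, RBFOXi replicate 2 and SCRM replicate 2. Over the other tested exons the medians were 301 in SCRM replicate 1 and 501, 598 and 623 in the same order. No skipping count at all was present for 209 long exons (27.6%) in SCRM replicate 1, and for 94 (12.4%), 68 (8.99%) and 87 (11.5%) in the others. Among the other tested exons this held for 22.4% in SCRM replicate 1 and for 13.2%, 8.57% and 10.9% in the same order. The count of an exon in SCRM replicate 1 was a median of 0.382 times that in SCRM replicate 2 over the long exons and 0.567 times over the other exons. It was 0.449 for exons under 750 nt, 0.311 from 750 to under 1000 nt, 0.353 from 1000 to under 2000 nt and 0.241 for 2000 nt or more, whereas the same ratio between the RBFOXi replicates lay from 0.767 to 0.798 in these groups. The part of this library in each result below was not tested beyond leaving it out.

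**Figure D1:**
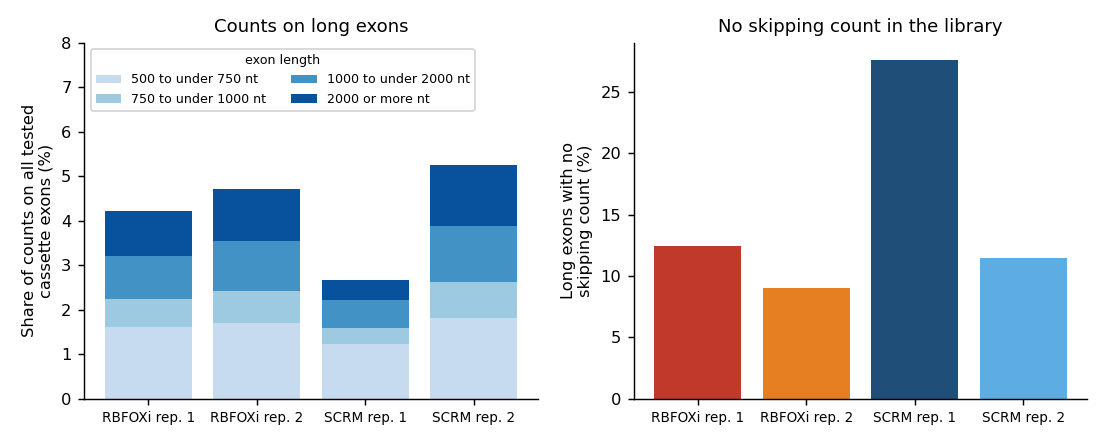
Left, the share of all counts on tested cassette exons that fell on long exons in each of the 4 libraries (percent), stacked by exon length. Right, the percent of the 756 tested long exons with no skipping count in the library, where SCRM replicate 1 stands at 27.6% and the others between 8.99% and 12.4%. Among the other tested exons, not drawn, it was 22.4% in SCRM replicate 1 and from 8.57% to 13.2% in the rest.

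In control cells most of the tested long exons were included in nearly all transcripts. The mean PSI in SCRM was over 0.95 for 403 of the 756 (53.3%), from 0.05 to 0.95 for 306 (40.5%) and under 0.05 for 47 (6.22%). By the plain share, 111 (14.7%) lay from 0.05 to 0.95. Among the other tested exons the PSI was from 0.05 to 0.95 in 28.6% and the share in 20.8%. Long exons thus held more exons of intermediate inclusion than the others by one definition and fewer by the other. The median was 0.960 as PSI and 0.996 as share for long exons, against 0.981 and 0.992 for the others.

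The PSI of long exons in SCRM was lower in the longer groups, and the plain share was not. The median PSI was 0.969 for the 331 exons under 750 nt, 0.962 for the 150 from 750 to under 1000 nt, 0.918 for the 194 from 1000 to under 2000 nt and 0.901 for the 81 of 2000 nt or more. The median shares of the same groups were 0.996, 0.997, 0.996 and 0.997. The share of exons with a PSI from 0.05 to 0.95 was 35.0%, 38%, 49.0% and 46.9% along the same order. In SCRM replicate 1 the median PSI was 0.906 and 0.919 in the 2 longest groups, and in SCRM replicate 2 it was 0.947 and 0.949. The SD of the PSI between the SCRM replicates had a median of 0.0172 for long exons and 0.00740 for the others. The median number of skipping counts per library was 3.75 for long exons and 4 for the others.

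**Figure D2:**
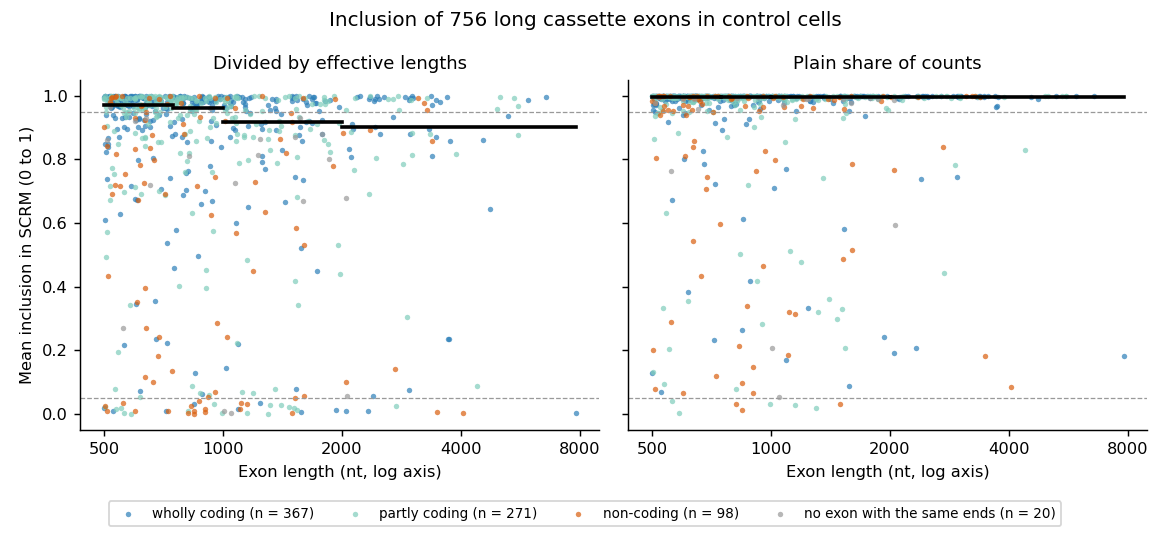
Each point is 1 of the 756 tested long exons, placed by its length (nt, log axis) and its mean inclusion over the 2 SCRM libraries, as length-divided PSI on the left and as the plain share of inclusion counts on the right. Colours give the coding status in GENCODE, black lines the median of each length group and dashed lines the limits of 0.05 and 0.95. The medians fall from 0.969 to 0.901 on the left and stay at 0.996 to 0.997 on the right.

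The gene models of long exons differed from those of other cassette exons. In GENCODE 44 lifted to hg19, 367 of the 756 (48.5%) were coding over their whole length, 271 (35.8%) in part and 98 (12.96%) not at all, and 20 had no exon with the same ends. Among the other tested exons 80.4% were wholly coding and 8.89% partly. A transcript start lay inside 275 long exons (36.4%; 11.9% of the others), a transcript end inside 385 (50.9%; 16.0%) and an annotated intron inside 94 (12.4%; 0.381%). Only 246 long exons (32.5%) were internal exons with none of these inside, against 73.1% of the others. Reads from a transcript that starts or ends inside an exon also count as inclusion, and what they added to the PSI was not tested. The length was a multiple of 3 in 46.3% of the wholly coding long exons and 46.0% of the wholly coding others, and 98.8% and 98.7% had AG and GT at their ends. The introns beside long exons had median lengths of 4076 nt before and 3671.5 nt after, against 2355.5 and 2134 nt.

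Among the tested long exons, inclusion differed with coding status. Wholly coding long exons had a median PSI of 0.975 in SCRM and a median share of 0.998, partly coding ones 0.955 and 0.996, and non-coding ones 0.737 and 0.966. A PSI under 0.5 was found in 29 of the wholly coding (7.90%), 37 of the partly coding (13.7%) and 36 of the non-coding long exons (36.7%). Their median counts over the 4 libraries were 7218, 4973 and 1887.5 in the same order. The filter asked for 4 or more skipping counts in total, which an exon with few counts passes more readily when its inclusion is low. What the filter added to the difference was not tested. The 246 exons with no annotated start, end or intron inside had a median PSI of 0.954, and the 510 others 0.961.

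The long exons of intermediate inclusion by both definitions in control cells, with PSI and share both from 0.1 to 0.9 and over 2000 counts, were 10. Of these, only the exons of PALLD and ANKRD17 had no annotated transcript start, end or intron inside. In the others, what reads from transcripts that start or end inside the exon added was not tested. They were singled out after their values had been seen. NASP encodes a histone chaperone, and its exon of 1017 nt had a PSI of 0.101 and 0.138 with RBFOXi and 0.124 and 0.163 with SCRM, on 1397 to 1603 skipping counts per library. NDUFV3 encodes a subunit of respiratory complex I, and its exon of 1095 nt had 0.173 and 0.251 with RBFOXi and 0.138 and 0.300 with SCRM. The exon of 753 nt in ANKRD17, an ankyrin repeat protein, had 0.351 and 0.531 against 0.445 and 0.475. In these 3 exons the groups overlapped. The others were the exons of COL6A3 (603 nt), DEPDC1, PALLD and PREPL, described below, of LRR1 (722 nt), and of the non-coding genes CD27-AS1 (640 nt) and LOC100506190 (743 nt). Their shares in SCRM were far higher than their PSI: in NASP 0.709 ± 0.0469 against 0.143 ± 0.0279 (SD, n = 2), and in ANKRD17 0.891 ± 0.00818 against 0.460 ± 0.0209.

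RBFOXi and SCRM were then compared by limma on the log2 odds of inclusion over all 28606 tested cassette exons, of which 27 (0.0944%) were called at a Benjamini-Hochberg adjusted p-value under 0.05 with a change in PSI of at least 0.1. None of the 756 long exons was called by limma with the condition as its only term, and a quasi-binomial F test called 1, that of DEPDC1. With the replicate number added as a block, limma called 2, in COL6A3 and DEPDC1. Of the long exons, 30 (3.97%) reached an unadjusted p-value under 0.05, against 3.84% of all tested exons. Higher inclusion with RBFOXi accounted for 24 of the 30 and lower for 6, where the background is 1.89% higher and 1.95% lower. The libraries of the groups did not overlap in 213 long exons (28.2%; background 31.0%), higher in 109 (14.4%; background 13.9%) and lower in 104 (13.8%; background 17.1%). The share of long exons past each of these thresholds was therefore close to or below that of all exons, and only the split by direction stood apart. The median log2 odds change was 0.25 over the long exons and 0.05 over all tested exons.

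This split by direction was not seen when leaving out SCRM replicate 1. Without it, 11 long exons had a higher and 14 a lower inclusion at an unadjusted p-value under 0.05, and the median log2 odds change was -0.05. Without SCRM replicate 2 the counts were 70 and 15 and the median was 0.62. Without RBFOXi replicate 1 they were 41 and 9, and without RBFOXi replicate 2 they were 22 and 6. A pseudocount of 0.1 in place of 0.5, with all libraries, gave 17 and 13. The median PSI change was 0.000968 with all libraries and -0.00172 without SCRM replicate 1.

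**Figure D3:**
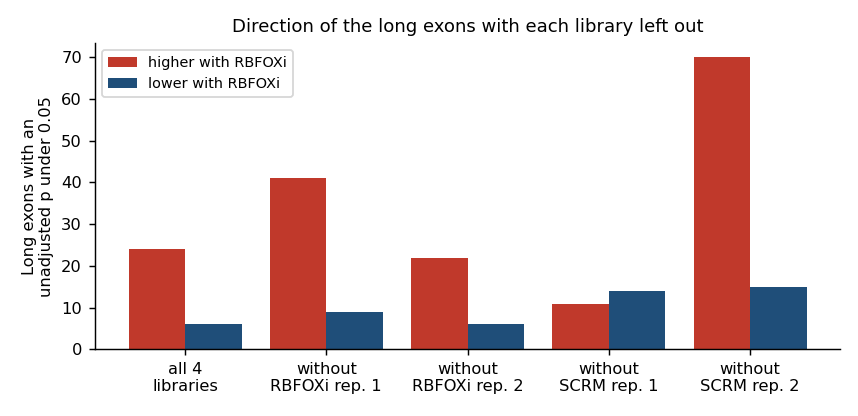
Number of long exons with an unadjusted p-value under 0.05 in limma, with higher (red) or lower (blue) inclusion after RBFOXi, with all 4 libraries and with each left out. The excess of higher inclusion, 24 against 6 with all libraries, becomes 11 against 14 without SCRM replicate 1 and 70 against 15 without SCRM replicate 2.

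The size of the change also depended on the definition of inclusion. The PSI differed by at least 0.1 in 69 long exons (9.13%; background 4.42%), 45 higher (background 2.19%) and 24 lower (background 2.23%). Of these 69, 53 had under 5 skipping counts in some library, and 9 had an unadjusted p-value under 0.05. The plain share differed by at least 0.1 in 21 (2.78%; background 2.65%), 20 of them higher (background 1.41%) and 1 lower (background 1.23%). Just 1 of the definitions reached 0.1 in 76 long exons. Without SCRM replicate 1 the counts were 25 higher and 31 lower by PSI, and 13 higher and 3 lower by share.

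**Figure D4:**
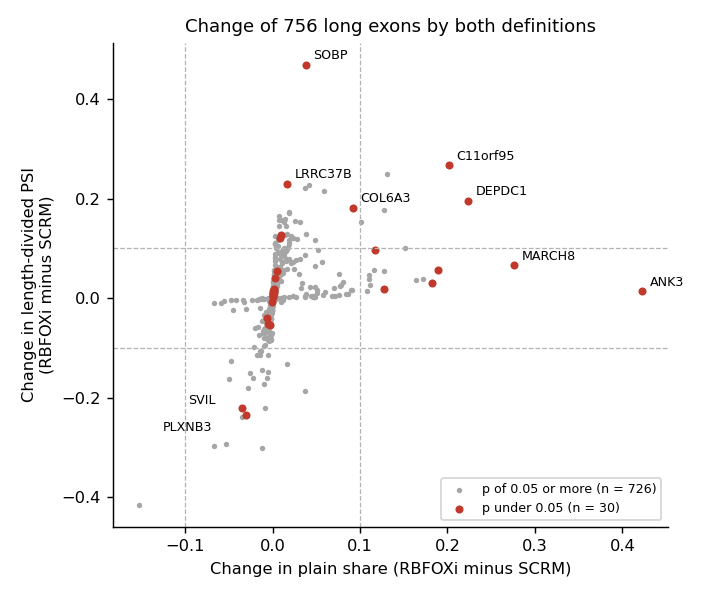
Each point is 1 of the 756 tested long exons, placed by the change (RBFOXi minus SCRM) in the plain share of inclusion counts and in length-divided PSI, with dashed lines at -0.1 and 0.1 and the 30 exons with an unadjusted p-value under 0.05 in red. ANK3 (0.423 by share, 0.0140 by PSI) and SOBP (0.0383 by share, 0.469 by PSI) lie at opposite ends, and DEPDC1 and C11orf95 pass 0.1 on both axes.

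The long exon with the smallest p-value was that of DEPDC1, which encodes a DEP domain protein of dividing cells. The exon lies at chr1:68947729-68948580 on the minus strand, is 852 nt long, a multiple of 3, and is wholly coding, with an annotated transcript start inside. Its inclusion and skipping counts were 919 and 152 in RBFOXi replicate 1, 1093 and 252 in RBFOXi replicate 2, 58 and 40 in SCRM replicate 1, and 766 and 448 in SCRM replicate 2. The PSI was 0.360 and 0.288 with RBFOXi and 0.119 and 0.137 with SCRM, so the groups did not overlap. Its share was 0.858 and 0.813 against 0.592 and 0.631. The mean PSI was 0.324 ± 0.0513 against 0.128 ± 0.0130 (SD, n = 2), and the log2 odds change was 1.70 ± 0.31 (SE; limma, unadjusted p = 9.03e-05, adjusted p = 0.0808). UGCAUG lies 163 nt before the exon, 20 nt after it and 1 time within it, as the windows above show. The adjusted p-value in limma was 0.0294 with a pseudocount of 1, 0.0129 with the loosest filter and 0.0161 without RBFOXi replicate 2, it was 0.0483 in the quasi-binomial F test, and over all alternatives it ranged from 0.000114 to 0.688.

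COL6A3, which encodes a chain of collagen VI, has 3 well-counted long exons of intermediate inclusion. The exon of 603 nt (chr2:238296225-238296827, minus strand) had a PSI of 0.455 and 0.597 with RBFOXi and 0.301 and 0.388 with SCRM, with no overlap. Its mean PSI was 0.526 ± 0.1001 against 0.344 ± 0.0614 (SD, n = 2), a log2 odds change of 1.09 ± 0.27 (SE; limma, unadjusted p = 0.00144, adjusted p = 0.515). UGCAUG lies 52 nt before it. The exon of 618 nt had a PSI of 0.116 and 0.0787 with RBFOXi and 0.0650 and 0.0791 with SCRM, and the exon of 600 nt 0.715 and 0.796 against 0.605 and 0.746. In both of these the groups overlapped. The shares were 0.868 and 0.921 against 0.771 and 0.832 in the exon of 603 nt, 0.514 and 0.407 against 0.358 and 0.408 in that of 618 nt, and 0.951 and 0.968 against 0.923 and 0.958 in that of 600 nt. The exons of 603 and 618 nt share their skipping counts (1628, 1298, 181 and 3440 in RBFOXi replicates 1 and 2 and SCRM replicates 1 and 2), since both events are set against the junction that passes over both exons. Their values are therefore not independent. Forms that hold 1 of these exons and skip the other are not counted as skipping. In the same order of libraries the inclusion counts were 10688, 15095, 611 and 17082 in the exon of 603 nt. In that of 618 nt they were 1719, 890, 101 and 2372. How far the uncounted forms raised either PSI or share was not tested. Without RBFOXi replicate 1 the exon of 603 nt was called (limma, adjusted p = 0.000417), and over all alternatives its adjusted p ranged from 1.21e-05 to 1.00. Its log2 odds change was 0.68 without RBFOXi replicate 2 and 0.81 without SCRM replicate 1.

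The other rises by the fixed rule were in exons with few skipping counts. SOBP, a nuclear zinc finger protein, had 0 skipping counts in both RBFOXi libraries and 1 and 5 in the SCRM libraries, and its exon of 1956 nt had a PSI of 1.00 in both RBFOXi libraries and of 0.623 and 0.438 with SCRM. In C11orf95, which the annotation names ZFTA, the exon of 561 nt had 0.513 and 0.456 against 0.214 and 0.220, on 8, 12, 9 and 26 skipping counts. The exon of 1433 nt in LRRC37B, a leucine-rich repeat protein, had 0.939 and 0.854 against 0.724 and 0.609, on 1, 6, 3 and 12 skipping counts. The shares were 1.00 in both libraries against 0.975 and 0.948 in SOBP, 0.886 and 0.860 against 0.667 and 0.675 in C11orf95, and 0.997 and 0.993 against 0.984 and 0.973 in LRRC37B. The groups did not overlap in these 3 exons, and limma gave unadjusted p-values of 0.0261, 0.0193 and 0.0316, each with an adjusted p of 0.9996.

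By the plain share, 8 long exons changed by at least 0.1 with an unadjusted p-value under 0.05, and inclusion was higher with RBFOXi in each. Besides DEPDC1 and C11orf95 these were exons of MARCH8, ANK3, ERCC8, NADSYN1, PTRH2 and PREPL, named after their values had been seen, except that of ANK3. The share of all tested exons past both limits was not computed. A change in share of at least 0.1, at any p-value, was found in 2.78% of the long exons and 2.65% of all tested exons. The MARCH8 exon (846 nt, wholly coding, in a ubiquitin ligase of membrane proteins) had shares of 0.479 and 0.601 with RBFOXi and 0.283 and 0.245 with SCRM. Its PSI was 0.0762 and 0.119 against 0.0341 and 0.0283, and its log2 odds change was 1.70 ± 0.43 (SE; limma, unadjusted p = 0.00151, adjusted p = 0.525). UGCAUG ends directly before the last 3 bases of its upstream intron, so the window above holds both the motif and the start of the exon. PREPL, a prolyl endopeptidase-like protein, had a PSI of 0.298 and 0.289 against 0.165 and 0.227 in its exon of 542 nt, with no overlap, and shares of 0.752 and 0.744 against 0.585 and 0.677. The exons of ERCC8 (1607 nt), a repair factor, of NADSYN1 (1406 nt), an enzyme of NAD synthesis, and of PTRH2 (1319 nt), a mitochondrial peptidyl-tRNA hydrolase, had mean PSI of 0.111, 0.0574 and 0.0478 with RBFOXi and of 0.0549, 0.0270 and 0.0287 with SCRM. The NADSYN1 groups overlapped and the others did not. Their shares were 0.745 and 0.664 against 0.420 and 0.610 in ERCC8, 0.441 and 0.649 against 0.277 and 0.448 in NADSYN1, and 0.433 and 0.462 against 0.268 and 0.372 in PTRH2. Without SCRM replicate 1 the log2 odds change fell from 1.17 to 0.62 in ERCC8, from 1.11 to 0.57 in NADSYN1, from 0.80 to 0.45 in PTRH2 and from 0.79 to 0.50 in PREPL. In NADSYN1 it was also 0.50 without RBFOXi replicate 2 and 1.73 without RBFOXi replicate 1.

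The longest tested exon, that of ANK3, shows the distance between the definitions most plainly. ANK3 encodes ankyrin-G, and its exon of 7812 nt (chr10:61828395-61836206, minus strand) is a giant exon known from neurons. Inclusion and skipping counts were 15 and 21, 65 and 17, 0 and 5, and 12 and 21 in RBFOXi replicates 1 and 2 and SCRM replicates 1 and 2. The share was 0.417 and 0.793 with RBFOXi and 0 and 0.364 with SCRM, whereas the PSI was 0.00516 and 0.0270 against 0 and 0.00413. So few reads over so long an exon leave it nearly always skipped by PSI in each library. An annotated intron and an annotated transcript start lie inside the exon, and how forms that hold only a part of it bear on these values was not tested. The log2 odds change was 2.84 ± 1.01 (SE; limma, unadjusted p = 0.0144, adjusted p = 0.9996). It was 1.498 without SCRM replicate 1, 1.65 without RBFOXi replicate 2, 4.03 without RBFOXi replicate 1 and 4.18 without SCRM replicate 2.

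Lower inclusion with RBFOXi, by the same rule, was found in exons of PLXNB3, SVIL, C17orf80, MBNL1 and CSF1. SVIL encodes supervillin, an actin- and myosin-binding membrane protein, and its exon of 930 nt (chr10:29821458-29822387, minus strand) had a PSI of 0.567 and 0.554 with RBFOXi and 0.743 and 0.817 with SCRM, on 12, 15, 3 and 18 skipping counts. The log2 odds change was -1.42 ± 0.63 (SE; limma, unadjusted p = 0.0433), and UGCAUG lies 223 nt after the exon. CSF1, the macrophage colony-stimulating factor, had the best counted of these exons, with 46, 79, 16 and 27 skipping counts. Its PSI was 0.934 and 0.925 against 0.969 and 0.968, a log2 odds change of -1.20 ± 0.41 (SE; limma, unadjusted p = 0.0117). MBNL1, itself a splicing factor, had a PSI of 0.913 and 0.947 in its exon of 963 nt with RBFOXi and of 1.00 and 0.963 with SCRM, where SCRM replicate 1 had 313 inclusion and 0 skipping counts against 13212 and 42 in SCRM replicate 2. The exons of PLXNB3 (a semaphorin receptor, 1041 nt) and C17orf80 (1520 nt) had 0 skipping counts in SCRM replicate 1 too, and mean PSI of 0.636 and 0.940 against 0.871 and 0.993. All 5 had an adjusted p of 0.9996 in limma, and their shares lay from 0.943 to 1.00 in every library. In PLXNB3 the log2 odds change was -2.40 with all libraries, -0.68 without SCRM replicate 1 and -4.13 without SCRM replicate 2. In MBNL1 it was -1.43 with all libraries and -0.92 without SCRM replicate 1.

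**Figure D5:**
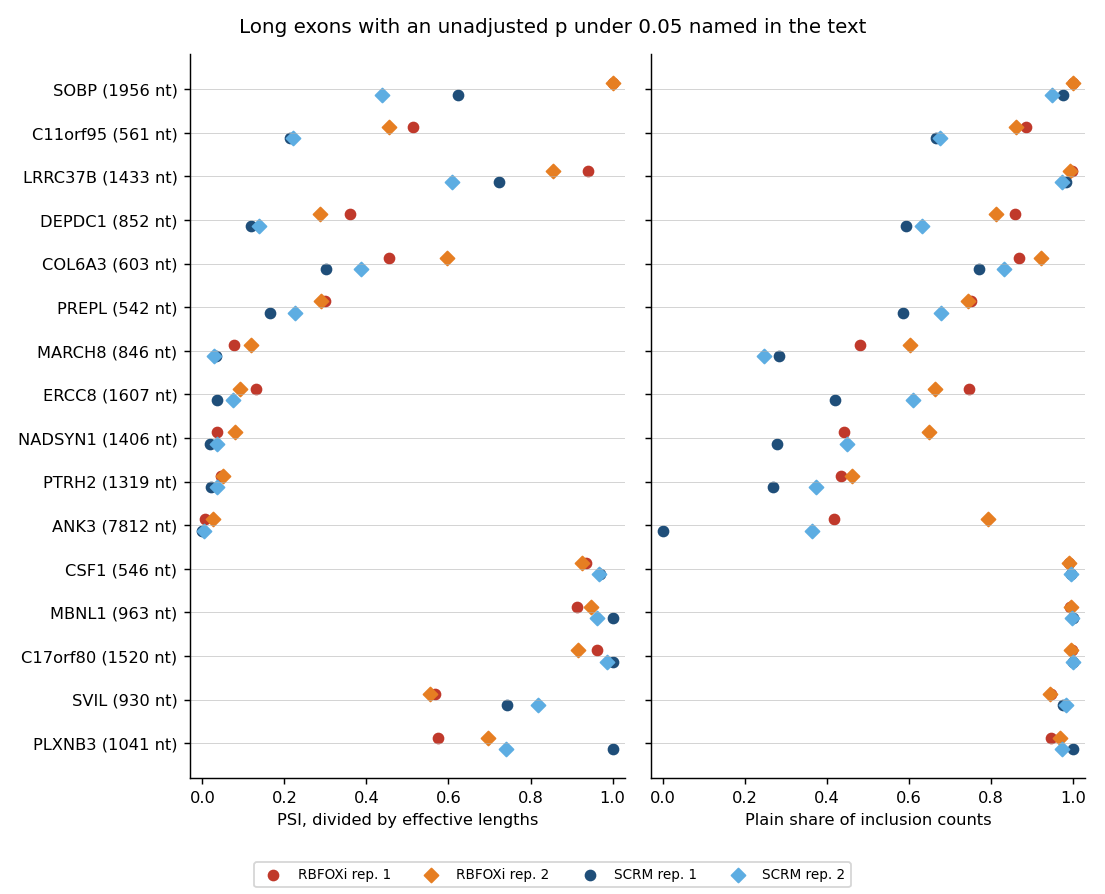
Inclusion of the 16 long exons named here with an unadjusted p-value under 0.05, in each of the 4 libraries (circles replicate 1, diamonds replicate 2), as length-divided PSI on the left and as plain share of inclusion counts on the right, both from 0 to 1. DEPDC1, COL6A3 and C11orf95 are separated on both axes, MARCH8, PTRH2 and ANK3 mainly by share, NADSYN1 overlaps on both, and SOBP, LRRC37B, SVIL and PLXNB3 mainly by PSI.

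UGCAUG was about as frequent beside long exons as beside the others. It lay within 300 nt after 67 of the 756 long exons (8.86%), where the other exons had 8.41%, and within 300 nt before 57 (7.54%), where they had 8.14%. Among the 109 long exons whose RBFOXi libraries were both higher, 14 (12.8%) had it before and 8 (7.34%) after, where the other exons with both higher had 8.78% and 6.74%. In the 104 whose RBFOXi libraries were both lower, 8 (7.69%) had it before and 6 (5.77%) after. For the other exons with both lower, 12.2% had it after and 8.16% before. Within the exon itself it was present in 163 long exons (21.6%) and 2.91% of the others, which are much shorter. The search covered the letters UGCAUG on the coding strand only.

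Genes of genome maintenance and mitosis had 11 tested long exons, of which limma called 0 and 1, that of DEPDC1, had an unadjusted p-value under 0.05. Their median PSI in SCRM was 0.840 and their median share 0.989, and by PSI 8 of the 11 lay from 0.05 to 0.95. ASPM, a spindle pole protein whose 4755 nt exon codes for calmodulin-binding repeats, had a PSI of 0.653 and 0.755 with RBFOXi and of 0.505 and 0.784 with SCRM. The exon of 1080 nt in MKI67, which encodes the proliferation antigen Ki-67, had 0.659 and 0.550 against 0.690 and 0.509, with 1 skipping count in SCRM replicate 1 and 159 in SCRM replicate 2. MLH3, a mismatch repair factor, had 0.976 and 0.958 against 0.807 and 0.951 in its exon of 3343 nt, and ESPL1, the protease separase, 0.905 and 0.826 against 0.804 and 0.876 in its exon of 989 nt. The groups overlapped in ASPM, MKI67 and ESPL1. In MLH3 they did not, and limma gave an unadjusted p of 0.115 and a log2 odds change of 1.63, which was 0.53 without SCRM replicate 1 and 2.72 without SCRM replicate 2. The shares of these 4 exons lay from 0.967 to 0.999.

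Chromatin genes had 12 tested long exons with a median PSI of 0.987 and a median share of 0.999 in SCRM, and 0 of the 12 were called or had an unadjusted p-value under 0.05. The exon of 1783 nt in PHF3, which encodes a PHD finger protein, had 0.961 and 0.879 with RBFOXi and 0.869 and 0.887 with SCRM. In MGA, a partner of MAX, the exon of 1131 nt had 0.870 and 0.783 against 1.00 and 0.738, where the 1.00 rests on 32 counts in SCRM replicate 1, and its PSI change was negative (-0.0429) while its log2 odds change was positive (0.26). The groups overlapped in both, and their shares lay from 0.975 to 1.00.

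Cytoskeletal genes had 11 tested long exons in 9 genes, with a median PSI of 0.354 and a median share of 0.966 in SCRM. By PSI, 6 of these exons lay under 0.5. Limma called 0, and 1 rose and 1 fell at an unadjusted p-value under 0.05, the exons of ANK3 and SVIL. PALLD, which encodes the actin-binding protein palladin, had a PSI of 0.451 and 0.452 with RBFOXi and of 0.365 and 0.342 with SCRM in its exon of 672 nt, with shares of 0.877 in both libraries against 0.832 and 0.818 and no overlap (log2 odds change 0.60 ± 0.29, SE; limma, unadjusted p = 0.0621). PLEC, the cytolinker plectin, had 0.801 and 0.849 against 0.795 and 0.827 in its exon of 3381 nt, on 57 to 294 skipping counts per library. The exon of 2139 nt in NIN, the centrosomal protein ninein, had 0.954 and 0.932 against 0.861 and 0.933, and the shares of both lay from 0.994 to 0.998. In MAP2, a dendritic microtubule-associated protein singled out after its values had been seen, a pair of overlapping exons of 3714 and 3726 nt shared the same 32 skipping counts, and the longer had a PSI of 0.458 and 0.358 against 0.267 and 0.206, with shares of 0.988 and 0.981 against 0.972 and 0.960 (limma, unadjusted p = 0.135).

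Matrix and adhesion genes had 9 tested long exons in 4 genes, with a median PSI of 0.932 and a median share of 0.990 in SCRM. Limma called 0, and 1, the COL6A3 exon of 603 nt, had an unadjusted p-value under 0.05. VCAN encodes versican, a proteoglycan whose glycosaminoglycan attachment regions are each coded by a single giant exon. The exon of 5262 nt had a PSI of 0.948 and 0.961 with RBFOXi and 0.903 and 0.969 with SCRM, on 8 to 29 skipping counts per library. The exon of 2961 nt, added after its values had been seen, had 0.0878 and 0.111 against 0.0744 and 0.0789, with a share of 0.794 ± 0.0300 against 0.745 ± 0.00859 (SD, n = 2; limma, unadjusted p = 0.151). By PSI the larger of these exons was thus included nearly always and the smaller seldom, whereas both shares were above 0.7. The skipping counts of the larger exon come only from the junction that passes over both exons. Forms that hold the smaller exon and skip the larger are not counted.

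RNA processing genes had 10 tested long exons with a median PSI of 0.984 and a median share of 0.999 in SCRM. By PSI, 3 of these exons lay under 0.5. Limma called 0 of them, and 1, that of MBNL1, fell at an unadjusted p-value under 0.05. The exon of 1358 nt in ACIN1, which encodes acinus, had a PSI of 0.0936 and 0.126 with RBFOXi and 0.0492 and 0.106 with SCRM. SCAF11 (1545 nt) had 0.0122 and 0.0197 against 0.0165 and 0.00830, and CLK4 (836 nt), a kinase of SR proteins, 0.202 and 0.0892 against 0.0728 and 0.104. In RBM6 (1279 nt) the PSI was 0.819 and 0.881 against 0.661 and 0.881. The shares were 0.798 and 0.847 against 0.665 and 0.819 in ACIN1, 0.209 and 0.301 against 0.264 and 0.152 in SCAF11, 0.728 and 0.508 against 0.453 and 0.550 in CLK4, and 0.987 and 0.992 against 0.969 and 0.992 in RBM6. By PSI the groups overlapped in all 4. SON, whose exon of 5916 nt is the third longest tested, had 7, 13, 0 and 21 skipping counts and a mean PSI of 0.980 ± 0.00415 against 0.986 ± 0.0198 (SD, n = 2). The second longest, of 6578 nt at chr16:89345480-89352057 on the minus strand, carries the name AX748291 in the table and lies in ANKRD11 in the annotation. It had 0, 3, 2 and 1 skipping counts and a mean PSI of 0.997 with RBFOXi and 0.994 with SCRM.

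Zinc finger genes, in which long exons often code for the finger array, had 26 tested long exons in 23 genes. Their median PSI in SCRM was 0.958 and their median share 0.996. Limma called 0, and 0 had an unadjusted p-value under 0.05. The groups did not overlap in 1 exon that was higher and 6 that were lower of the 26 (background 13.9% higher and 17.1% lower), and the same counts were 2 and 0 of 11 for genome maintenance and mitosis, 0 and 4 of 12 for chromatin, 4 and 3 of 11 for cytoskeletal genes, 2 and 2 of 9 for matrix and adhesion and 0 and 1 of 10 for RNA processing. Overlapping exons of 1519 and 1845 nt in ZNF638 shared their skipping counts (20, 19, 1 and 23). Both were among the 6 zinc finger exons that were lower, and both MAP2 exons were among the 4 cytoskeletal exons that were higher. The exons in these counts are therefore not all independent. The shorter ZNF638 exon had a PSI of 0.748 and 0.864 with RBFOXi and 0.884 and 0.869 with SCRM. ZNF287 (601 nt) had 0.857 and 0.879 against 0.869 and 0.899, and ZSCAN25 (2014 nt) had 0.835 and 0.970 against 0.834 and 0.934. In these last 2 the groups overlapped. The shares of the zinc finger exons named lay from 0.979 to 0.999.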

How the data were processed

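Per the labels and the authors' methods, reads of the 4 libraries were aligned to hg19 with STAR 2.4.2a and counted per event with rMATS and the UCSC known genes. The authors deposited raw inclusion and skipping counts (whole numbers, 2 replicates to a cell) and the forms' effective lengths, from which PSI was computed here. The deposited p-value, FDR and inclusion level columns hold the authors' own comparison and were not used, nor were the tables of the other event types. Every count column used matched its group (0 unmatched).

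Exons were annotated with GENCODE 44 and the GRCh37 genome in Python 3.11.15 with pysam 0.24.0. The log2 odds of inclusion (pseudocount 0.5) of all 28606 tested exons went into limma 3.58.1 (R 4.3.3), whose prior variance followed each exon's counting information. On simulated data made from these exons, with 200 changed by 2 log2 units, limma recovered 59 (29.5%) and called 0 unchanged exons. The simulated spread between libraries was capped at 2 times its median over the exons, so exons of wider spread were drawn with less. Both results hold for that setting only. The changed exons were of any length, with a pooled share of inclusion counts between 0.05 and 0.95, and recovery was scored without the PSI minimum. Only 111 of the 756 long exons (14.7%) had a mean SCRM share in that range. The rate therefore does not measure recovery among long exons.

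The members and gene lists were chosen with earlier results of these data known. Exons named were the called ones, the 5 largest falls and rises in PSI with an unadjusted p-value under 0.05 and groups that do not overlap, up to 4 per gene list with intermediate inclusion, the 3 longest and those at the length limit. The lists covered genome maintenance and mitosis, chromatin, cytoskeleton, matrix and adhesion, RNA processing and zinc finger genes. The replicates are described as independent biological replicates; in the labels both replicates 1 carry the tag D_R and both replicates 2 the tag P, whose meaning is not given in the sources used here. Alternatives covered the test, pseudocount, filter, replicate block, centring, definition of PSI, length limit and each library left out.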

Additional observations from a re-analysis of the deposited data

How the results depend on the processing

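No long exon was called in the reported analysis, and the count was 1 with a pseudocount of 1, 2 with no filter beyond 1 count in every library, 1 in the quasi-binomial F test, and 1 with a length minimum of 300 nt, where the called exon, of EPB41L1, fell (1 lower) and is under 500 nt. Leaving out 1 library gave 0 to 1 (COL6A3 without RBFOXi replicate 1, DEPDC1 without RBFOXi replicate 2). The replicate block gave 2 (COL6A3, adjusted p = 1.21e-05, and DEPDC1, 0.000114, in limma), took MARCH8 (0.0205) and NADSYN1 (0.0195) past the adjusted threshold but not the PSI minimum, and gave 48 higher and 9 lower at an unadjusted p-value under 0.05; same-numbered samples had deviations correlated at 0.118 over the long exons, with only 2 pairs, and were treated as sharing a number. The quasi-binomial test, the restriction to exons with no annotated start, end or intron inside, and the counts by direction were chosen after seeing the data. The planned edgeR test was not run, because the deposited cells join replicates.

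The median PSI in SCRM was 0.996 as plain share, 0.917 with a length minimum of 1000 nt, 0.954 with no annotated start, end or intron inside, and 0.958 to 0.965 with a library left out. The number of intermediate exons was 111, 133 and 98 in the same order, and 280 to 306 with a library left out. The median PSI change was -0.00172 to 0.00318 with a library left out.

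Of 562 values of 47 named exons under alternatives, 522 kept direction and side of the threshold, 10 passed it newly and 30, in 16 exons, turned sign; the cause was not tested. The log2 odds change turned to 0.29 in SON, -0.32 in VCAN (5262 nt) and -0.37 in ASPM in the quasi-binomial test, to -0.75 in MGA with a pseudocount of 0.1 and to -0.0103 in NDUFV3 after centring. With a library left out it ranged from -2.05 to 0.48 in SON, -0.10 to 0.91 in SCAF11, -1.04 to 0.0799 and -0.99 to 0.11 in ZNF638 (1845 and 1519 nt), -0.12 to 0.63 in MGA, -0.58 to 1.26 in VCAN, -0.17 to 0.81 in ESPL1, -0.0932 to 0.40 in PLEC, -0.69 to 0.72 in NDUFV3, -0.35 to 1.57 in RBM6, -0.60 to 1.27 in ASPM, -0.16 to 0.0698 in CD27-AS1, -0.19 to 2.17 in AX748291, -0.58 to 1.67 in ZSCAN25, -0.0360 to 0.62 in MKI67 and -0.63 to 0.44 in ANKRD17.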

Other observations

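The ratio of counts in SCRM replicate 1 to those in SCRM replicate 2 differed between the gene lists. Over all tested exons it had a median of 0.562, with 5th and 95th percentiles of 0.0786 and 1.86, so it was above 1 in some exons. The count in replicate 1 was a median of 0.0553 times that in replicate 2 over the 9 long exons of matrix and adhesion genes, 0.0852 times over the 12 of chromatin genes, 0.152 times over the 11 of cytoskeletal genes, 0.170 times over the 11 of genome maintenance and mitosis, 0.185 times over the 10 of RNA processing genes and 0.249 times over the 26 of zinc finger genes. All 6 medians lie below the 0.382 of all long exons. Shorter exons of the same genes were not set beside them, so whether the ratios are those of the genes or of their long exons was not tested. Between the RBFOXi replicates the medians of the same lists were 0.938, 0.651, 0.928, 0.894, 0.707 and 0.605. A count under 0.1 times that of the other SCRM replicate was found in 126 of the 756 long exons (16.7%) and 7.23% of the other exons, and between the RBFOXi replicates in 1 long exon.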
